A study of Homo sapiens with 12 samples.

Results

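Respiratory complex I (NADH:ubiquinone oxidoreductase) was followed through the 46 genes of its NDUF family that carried a value after treatment of 2 cancer cell lines with myricone C. The family was taken by name: every listed gene whose symbol begins with NDUF, without 1 pseudogene and 1 hyphenated antisense name, which left 46 of 48 such entries and 46 of the 12360 genes listed for either line. Of these, 8 have NDUFAF symbols and are assembly factors, and 38 are named as subunits. All 46 were listed for both lines and passed the filter on low values.

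The cells were 23132/87, an established gastric adenocarcinoma line, and SW48, an established colorectal adenocarcinoma line, both labelled wild type. Each line received either 10 µM myricone C (MyrC), which the series title describes as a neolignan of Myristica fragrans, or 0.1% DMSO as vehicle, and RNA was taken after 48 h. Each of the 4 groups held 3 libraries labelled as biological replicates, 12 in all, made by stranded poly(A) RNA sequencing. All groups grew in the same serum medium with penicillin and streptomycin.

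Complex I is the entry point of electrons from NADH into the respiratory chain of the inner mitochondrial membrane, and it pumps protons as it passes those electrons to ubiquinone. Its L shape has a peripheral arm in the matrix, where flavin and iron-sulfur clusters carry electrons, and a membrane arm that holds the proton pumps. The catalytic core is partly encoded in the nucleus and partly in mitochondrial DNA. Around it sit accessory subunits, which are all nuclear, and assembly factors help the modules to join without staying in the finished enzyme. The mitochondrially encoded subunits were not listed in either table, so what follows concerns nuclear transcripts alone. In bulk RNA, fewer cells with a transcript and less transcript per cell cannot be told apart.

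Upstream stretches of 6 members that carry results below are shown. NRF1, ETS-family factors and YY1 are known to bind promoters of respiratory genes, and ATF4 is a factor of the stress response. NDUFB6, NDUFB4, NDUFB7 and NDUFS6 fell in both lines. NDUFB6 was picked for its fall over both lines, the largest among members with a stretch to show. The others that fell were picked because their stretch holds a match to a searched motif, so that they hold one is no result. NDUFAF3 and NDUFV3 rose in 1 line and were picked without regard to matches. Each stretch is the longest run outside GENCODE exons within the 250 bases before the RefSeq gene start on GRCh38.p14, and members whose run was under 100 bases, such as NDUFB3 and NDUFAF2, are not shown. NDUFB6 and NDUFB7 lie on the minus strand and the others on the plus strand, and each stretch reads along its gene. The RefSeq start of NDUFV3 differs from that of GENCODE, so its stretch lies inside the GENCODE span of the gene given below. Capitals mark 2 matches to the NRF1 motif (GCGC, any base, then TGCGC) in NDUFB4, the first readable on either strand and the second on the reverse strand only, 1 to CCGGAAG (ETS) in NDUFB7, and 1 to TGATGNAA (an ATF4 element) in NDUFS6.
NDUFB6, chr9:32573185-32573409: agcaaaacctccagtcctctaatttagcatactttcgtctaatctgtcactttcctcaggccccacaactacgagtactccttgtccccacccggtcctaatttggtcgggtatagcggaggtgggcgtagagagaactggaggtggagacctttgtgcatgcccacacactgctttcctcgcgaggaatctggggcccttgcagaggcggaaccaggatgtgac
NDUFB4, chr3:120596086-120596308: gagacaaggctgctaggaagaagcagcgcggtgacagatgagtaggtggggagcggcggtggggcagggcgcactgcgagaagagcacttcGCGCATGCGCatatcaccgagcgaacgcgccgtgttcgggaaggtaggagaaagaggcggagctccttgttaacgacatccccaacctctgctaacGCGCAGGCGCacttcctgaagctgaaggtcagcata
NDUFB7, chr19:14572067-14572316: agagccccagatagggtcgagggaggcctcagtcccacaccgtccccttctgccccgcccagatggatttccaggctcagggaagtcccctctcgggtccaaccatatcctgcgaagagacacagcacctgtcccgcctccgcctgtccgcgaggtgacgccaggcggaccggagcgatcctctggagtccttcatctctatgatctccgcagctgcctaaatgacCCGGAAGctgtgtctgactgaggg
NDUFS6, chr5:1801157-1801333: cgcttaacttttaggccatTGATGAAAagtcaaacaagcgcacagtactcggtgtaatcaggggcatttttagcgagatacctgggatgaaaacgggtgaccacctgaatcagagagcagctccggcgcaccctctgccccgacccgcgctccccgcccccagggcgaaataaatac
NDUFAF3, chr3:49020235-49020451: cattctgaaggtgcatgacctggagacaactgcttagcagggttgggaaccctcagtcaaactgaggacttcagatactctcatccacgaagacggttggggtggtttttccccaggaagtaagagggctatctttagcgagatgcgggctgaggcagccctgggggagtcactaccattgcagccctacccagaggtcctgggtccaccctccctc
NDUFV3, chr21:42893059-42893264: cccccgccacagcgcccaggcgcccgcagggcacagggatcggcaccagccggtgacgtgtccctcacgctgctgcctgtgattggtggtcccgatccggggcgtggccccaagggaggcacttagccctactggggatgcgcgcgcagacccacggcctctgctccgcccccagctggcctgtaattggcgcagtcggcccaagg

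Promoters of 39 members were matched in the RefSeq table, 32 of subunits and 7 of assembly factors, and each was searched on both strands over its full window from 250 bases before to 50 after the start. The NRF1 motif was found in 7 of the 39 (18.0%) and in 5.78% of the table's 35116 promoters. NDUFA3, NDUFA8, NDUFA9, NDUFA11, NDUFA12, NDUFB4 and NDUFAF5 held it. The YY1 motif AAGATGGC was found in 6 (15.4%), against 2.89% of all promoters, in NDUFA3, NDUFA6, NDUFA7, NDUFA9, NDUFS4 and NDUFS7. The ETS motif was found in 6 (15.4%), against 10.3%, in NDUFA1, NDUFA13, NDUFB7, NDUFS1, NDUFS3 and NDUFAF4. The ATF4 element was found in NDUFS6 alone, 2.56% of the 39 against 3.62% of all promoters. These are matches of letters and no measure of binding. The 35116 promoters were not limited to genes listed for these lines or to a single promoter per gene, as those of the members were. Whether the members differ from other listed genes in matches was not tested. NDUFA3 and NDUFA9 were the members with both NRF1 and YY1 matches.

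The values are an expression signal per gene whose exact unit is not settled. It looks like FPKM or TPM, and levels of different genes can be compared only if it is 1 of these. Without treatment, the subunits had a median signal of 82.8 in 23132/87 and 78.8 in SW48. Their range ran from NDUFV3, at 7.61 and 6.60, to NDUFB9 at 551 in 23132/87 and NDUFS5 at 267 in SW48. The assembly factors had lower signals, with medians of 10.3 and 10.2, and NDUFAF2 was the highest of them in both lines. A change is given as log2(value + 1) in MyrC minus vehicle, with limma's moderated standard error (SE), and a gene is called where the Benjamini-Hochberg adjusted p over all genes of the fit is under 0.05. The added 1 understates changes of genes with low signal, which touches the assembly factors more than the subunits.

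Read depth is unknown. The listed values of a library summed to between 464037 and 536594, and the members took 0.885% to 0.913% of that sum in the 23132/87 vehicle libraries and 0.564% to 0.733% in the MyrC libraries. In SW48 the share was 0.700% to 0.768% with vehicle and 0.461% to 0.501% with MyrC, so the groups did not overlap in either line. In 23132/87, MyrC replicate 1 had the lowest sum and the lowest value of the treated libraries for 35 of the 38 subunits. In SW48, MyrC replicate 1 had 5.28% of its summed values in small RNAs, against 0.0733% to 0.220% in the line's other libraries. All 5 epithelial markers were listed in both lines, and most of them moved with treatment. In 23132/87 EPCAM and the keratins KRT8, KRT18 and KRT19 fell and the cadherin CDH1 rose, with a median of -1.22, and their summed signal was 7654 to 10248 with vehicle and 2725 to 3765 with MyrC. In SW48 the keratins and CDH1 rose. EPCAM was not called there, at -0.27, though its MyrC values lay below its vehicle values. The median of the 5 was 0.74, and the sum was 1018 to 1790 with vehicle and 2785 to 3956 with MyrC. The difference between lines was called for the 3 keratins, and the part of these changes in the results was not tested. TFF1 was the 1 gastric marker listed for 23132/87, where it fell by 0.85 on the log2 scale from a mean of 292. CDX2, a colorectal marker, was at 34.0 with vehicle in SW48, where it fell by 1.47, and at 4.80 in 23132/87, where it was not called. VIL1, another colorectal marker, was listed for 23132/87 alone and fell by 1.54, and CDH17 was not called in either line. Unlike CDX2, the listed colorectal markers together had the higher vehicle signal in the gastric line. Their sum was 307 to 356 over 3 genes in 23132/87 and 33.1 to 42.6 over 2 genes in SW48, though the lines may be scaled separately. Of the leukocyte markers only CD68 was listed, in 23132/87, where it rose by 1.22 on the log2 scale from a mean of 5.53, while PTPRC was not listed in either line, and the part of CD68-bearing cells in the results was not tested. COL1A1 was the 1 mesenchymal marker listed, in 23132/87 alone, and no endothelial marker was listed.

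In 23132/87, most subunit transcripts were lower with MyrC. Of the 38 subunits, 30 fell, 1 rose and 7 were not called. Of all 11070 genes, 46.5% were called, 23.2% as lower and 23.3% as higher. The subunits' median log2 change was -0.58, that of all genes 0.01. In 31 subunits every MyrC library lay below every vehicle library, which held for 27.9% of all genes.

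The 7 nuclear core subunits carry the flavin, the iron-sulfur clusters and part of the quinone site, and 6 of them fell, with a median of -0.59. NDUFS3, a core subunit of the quinone-binding module, had signals of 73.7, 85.9 and 82.6 with vehicle and 44.1, 50.5 and 47.9 with MyrC. Its groups were well apart, and it fell by 0.75 ± 0.10 on the log2 scale (limma adjusted p = 0.000256). NDUFS7, carrier of the last iron-sulfur cluster before the quinone, went from 46.7, 47.1 and 41.6 to 16.4, 27.1 and 31.6, with its lowest treated value in MyrC replicate 1. That was the deepest change among the core genes, at -0.87 ± 0.20. NDUFV1, which binds NADH and the flavin, stood at 107 ± 7.12 (SD, n = 3) with vehicle and 68.1 ± 11.8 with MyrC. NDUFV2, its iron-sulfur partner, changed by -0.44 ± 0.10. NDUFS8 was called at -0.44 ± 0.14 although its highest treated value, 68.6, lay above its lowest vehicle value, 67.4. NDUFS8 was no longer called without vehicle replicate 1 or 2 or without MyrC replicate 1 or 2, with adjusted p up to 0.100. NDUFS1, the largest core subunit and holder of several iron-sulfur clusters, was not called, at -0.20 ± 0.09 with vehicle signals of 48.9, 46.0 and 53.3 and MyrC signals of 42.0, 42.8 and 43.7.

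The 9 accessory subunits of the peripheral arm were mixed, with 6 lower, 1 higher and a median of -0.42. NDUFA2 (chr5:140638740-140647785), a small subunit with a thioredoxin-like fold, had signals of 65.4, 59.0 and 58.8 with vehicle and 20.4, 33.1 and 37.2 with MyrC. It fell by 1.03 ± 0.19 (limma adjusted p = 0.00155), the third largest fall in the family, and its groups did not overlap. NDUFA9, which binds a nucleotide near the junction of the arms, went from 15.3 ± 0.728 to 8.25 ± 1.91 (SD, n = 3), a change of -0.84 ± 0.15. NDUFA12, which takes the place of the assembly factor NDUFAF2 late in assembly, went from 99.8 ± 11.2 to 62.9 ± 9.91. NDUFS6, which is also added late, changed by -0.59 ± 0.15. NDUFS4, whose loss causes Leigh syndrome in patients, had vehicle signals of 64.3, 63.1 and 82.5 and MyrC signals of 59.1, 79.2 and 77.9, which overlapped, with a change of 0.04 ± 0.14. NDUFA7 likewise overlapped, at -0.09 ± 0.15.

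NDUFV3 (chr21:42879644-42913304), a small accessory subunit that binds near NDUFV1, was the exception in direction. Its signals were 7.63, 7.38 and 7.81 with vehicle and 10.8, 10.3 and 10.0 with MyrC, so every treated value lay above every vehicle value. It rose by 0.40 ± 0.11 (limma adjusted p = 0.013), and without vehicle replicate 2 the adjusted p was 0.0512. It was also the subunit with the lowest vehicle signal.

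The 20 accessory subunits of the membrane arm included 16 that fell, none that rose and a median of -0.55. NDUFB3 (chr2:201071433-201085750 on GRCh38, as all positions here), a single-span membrane subunit, had signals of 121, 120 and 127 with vehicle and 29.9, 47.2 and 53.8 with MyrC. The treated mean was 35.6% of the vehicle mean, the change was -1.51 ± 0.18 (limma adjusted p = 0.000139), and no other member changed as much in either line. NDUFS5 (chr1:39026318-39034636), a disulfide-bonded subunit on the intermembrane side, went from 283, 292 and 278 to 92.2, 131 and 155, a change of -1.20 ± 0.16 (limma adjusted p = 0.000304). NDUFB1 (chr14:92116122-92121917), another small membrane-arm subunit, had 398, 312 and 359 with vehicle and 139, 196 and 215 with MyrC, a change of -0.97 ± 0.16 (limma adjusted p = 0.001). In all 3 genes the groups lay clearly apart, with MyrC replicate 1 lowest. NDUFB6, at -0.89 ± 0.20, and NDUFB2, at -0.79 ± 0.16, came next. NDUFA3, another small subunit, went from 82.9, 63.1 and 57.8 to 25.5, 54.6 and 45.9, at -0.73 ± 0.24, and was not called without vehicle replicate 1 or 2 or MyrC replicate 1, with adjusted p up to 0.102.

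The membrane-arm genes that were not called were NDUFB5, NDUFB9, NDUFB11 and NDUFC1. NDUFB9, which binds the acyl carrier protein, had the highest vehicle signals of the family, at 530, 549 and 573, and MyrC signals of 426, 517 and 571 that overlapped them. NDUFC1 had treated signals spread from 30.1 in replicate 1 to 60.5 in replicate 3, and the latter lay within its vehicle range. The calls of NDUFA13 and NDUFB8 were the weakest in this class, with adjusted p of 0.0472 and 0.0431. Neither held without any 1 of the vehicle replicates or without MyrC replicate 1, with adjusted p up to 0.127 and 0.118.

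NDUFAB1 (chr16:23581002-23596356), the mitochondrial acyl carrier protein that complex I holds in both arms, went from 114, 109 and 134 to 67.9, 88.6 and 80.6. Its groups did not overlap, and it fell by 0.59 ± 0.12 on the log2 scale (limma adjusted p = 0.00352). NDUFA4 (chr7:10931951-10940256), named for complex I but now assigned to cytochrome c oxidase, had signals of 71.1, 69.9 and 75.2 with vehicle and 37.1, 50.5 and 57.6 with MyrC. It fell by 0.59 ± 0.14 (limma adjusted p = 0.00838), about the median of the subunits.

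Of the 8 assembly factors in 23132/87, NDUFAF4 and NDUFAF8 fell, NDUFAF2 rose, 5 were not called, and the median was -0.26. The share that fell, 25%, was near the 23.2% of all genes. NDUFAF2 (chr5:60945129-61153037), a relative of NDUFA12 that sits on a late assembly intermediate, had signals of 50.5, 33.7 and 38.1 with vehicle and 61.7, 68.6 and 59.7 with MyrC. All treated values lay above all vehicle values, and the mean went from 40.8 to 63.3, a rise of 0.64 ± 0.14 (limma adjusted p = 0.00469). This call held under all alternatives tried. NDUFAF8, which stabilises NDUFAF5, went from 33.7, 25.3 and 19.1 to 13.9, 18.1 and 16.9, a change of -0.61 ± 0.18 (limma adjusted p = 0.0211). NDUFAF4, which works on the quinone-binding module, went from 9.18, 9.29 and 11.8 to 7.29, 6.95 and 8.38, at -0.37 ± 0.13 (limma adjusted p = 0.0442). Neither of these falls held when vehicle replicate 1 or 2 or MyrC replicate 1 was left out, and that of NDUFAF4 was lost also without vehicle replicate 3 or MyrC replicate 2. Their highest adjusted p over all alternatives was 0.0659 for NDUFAF8 and 0.143 for NDUFAF4.

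Of the assembly factors that were not called, NDUFAF1, which belongs to the membrane-arm assembly complex with ECSIT and ACAD9, had a treated mean at 80.5% of vehicle and groups that did not overlap, at -0.29 ± 0.11 with adjusted p = 0.059. NDUFAF5, which hydroxylates an arginine of NDUFS7, stood at -0.28 ± 0.13. NDUFAF6, which acts early in assembly, stood at -0.23 ± 0.12. NDUFAF3, the partner of NDUFAF4, was at 20.1, 23.8 and 20.4 with vehicle and 19.9, 21.4 and 20.5 with MyrC. NDUFAF7, a methyltransferase of the matrix, was at 0.04 ± 0.12.

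**Figure D1:**
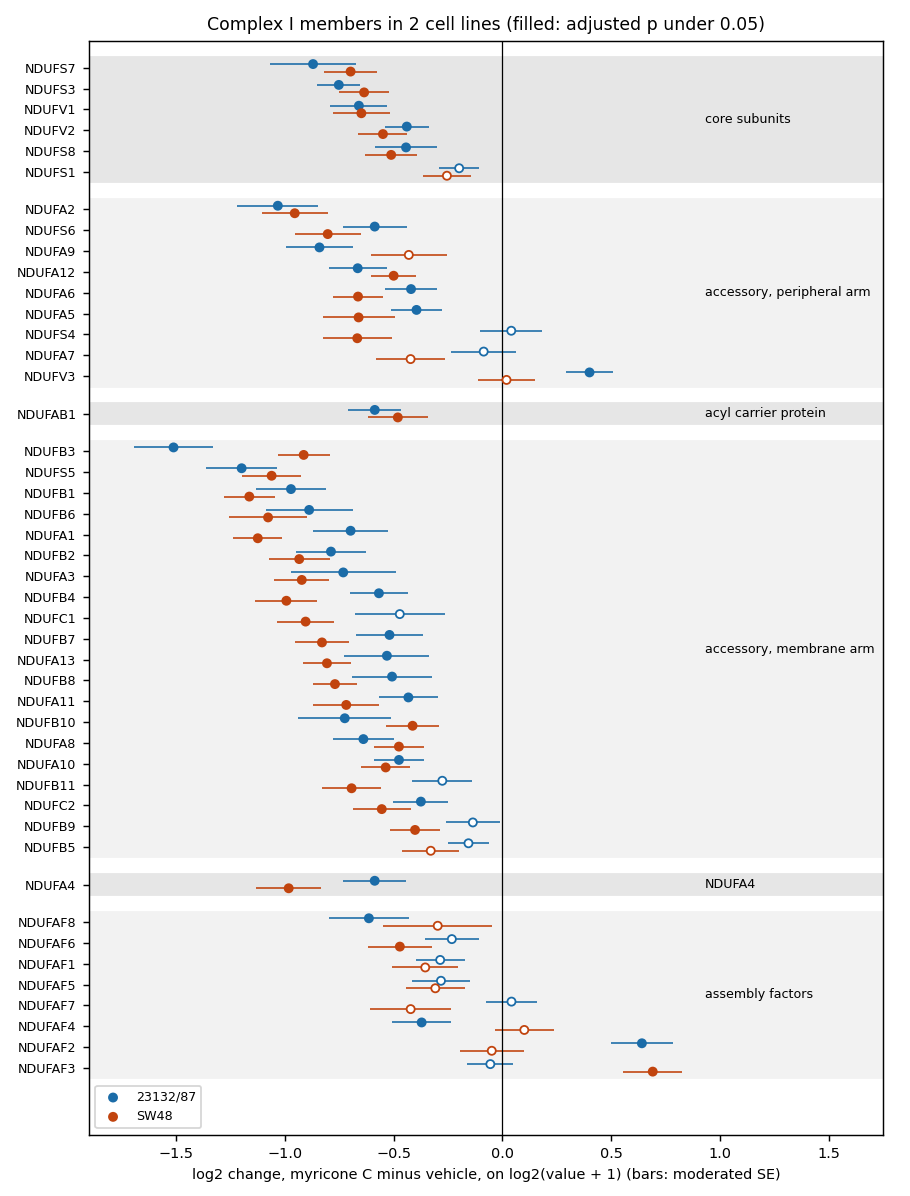
Log2 change of the complex I members in 23132/87 (blue) and SW48 (orange), ordered by class, with 1 core subunit not shown. Points are MyrC minus vehicle on log2(value + 1), bars the moderated SE, and filled points have an adjusted p under 0.05. Most subunits lie left of 0 in both lines, NDUFB3 of 23132/87 lies furthest left at -1.51, and filled points right of 0 are NDUFV3 and NDUFAF2 of 23132/87 and NDUFAF3 of SW48.

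In SW48, 33 of the 38 subunits fell and none rose, with a median change of -0.68. By limma's unadjusted p under 0.05, 37 subunits were lower and 0 higher, and the estimate above 0 was that of NDUFV3, at 0.02. Of all 11554 genes, 29.3% were called, 19.2% as lower and 10.1% as higher, with a median of -0.08. Of the genes called, 34.6% were higher as deposited, 46.2% after quantile normalization and 46.5% after rescaling without mitochondrial pseudogenes and small RNAs. The subunits called lower numbered 31 and 33 under these scalings. In 34 subunits the groups did not overlap, lower with MyrC, which held for 28.4% of all genes.

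Of the core subunits, 6 of 7 fell and the median was -0.64. NDUFS3 had signals of 94.9, 85.8 and 94.4 with vehicle and 54.4, 55.8 and 66.4 with MyrC, which did not overlap, a change of -0.64 ± 0.12. NDUFS7 went from 45.6 ± 3.50 to 27.8 ± 3.01 (SD, n = 3), a change of -0.70 ± 0.12, and NDUFV1 from 168 ± 13.7 to 108 ± 16.6. The vehicle signal of NDUFV1 was higher here than in 23132/87, but tables of the lines may be scaled separately. NDUFS1 was again the core gene not called, at -0.26 ± 0.11 with adjusted p = 0.103. Its vehicle signals of 41.6, 44.0 and 47.3 nevertheless lay above its MyrC signals of 36.8, 35.5 and 38.5, as those of all 7 core genes did.

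Among accessory subunits of the peripheral arm 6 of 9 fell, with a median of -0.66. NDUFA2 changed by -0.95 ± 0.15 and NDUFS6 by -0.80 ± 0.15. NDUFS4, which had overlapped in 23132/87, went from 47.8, 54.9 and 61.2 to 43.0, 28.4 and 31.8 and fell by 0.67 ± 0.16 on the log2 scale (limma adjusted p = 0.00933). The genes not called were NDUFA7, at -0.42 ± 0.16, NDUFA9, at -0.43 ± 0.17, and NDUFV3. NDUFV3 had 6.97, 5.93 and 6.90 with vehicle and 6.67, 6.49 and 6.90 with MyrC.

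Of the accessory subunits of the membrane arm, 19 of 20 fell, with a median of -0.82 and NDUFB5 as the gene not called, at -0.33 ± 0.13. NDUFB1 had signals of 175, 179 and 200 with vehicle and 90.0, 82.6 and 73.1 with MyrC. The treated mean was 44.4% of vehicle, and the change of -1.16 ± 0.12 (limma adjusted p = 0.000119) was the largest fall of a member in SW48. NDUFA1 (chrX:119871487-119876662), a single-span subunit, went from 253, 233 and 230 to 123, 102 and 103, at -1.12 ± 0.11 (limma adjusted p = 0.000119). NDUFB6 (chr9:32552999-32573184), another membrane-arm subunit, went from 29.3, 27.6 and 37.1 to 19.0, 12.6 and 11.8, at -1.08 ± 0.18 (limma adjusted p = 0.00141). NDUFS5 went from 286, 215 and 300 to 136, 123 and 119, at -1.06 ± 0.14 (limma adjusted p = 0.000378). The groups of all 4 genes lay apart, and in NDUFS5 the vehicle libraries were more spread than the treated ones. NDUFB3, first in 23132/87, changed here by -0.91 ± 0.12, from 65.1 to 34.1. NDUFB4 changed by -0.57 ± 0.13 in 23132/87 and -0.99 ± 0.14 in SW48, and NDUFB7 by -0.52 ± 0.15 and -0.83 ± 0.12, all called lower. The 23132/87 call of NDUFB7 was lost without vehicle replicate 1 or 3, with adjusted p up to 0.0648.

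NDUFAB1 had signals of 111, 102 and 122 with vehicle and 68.3, 76.1 and 95.9 with MyrC, at -0.48 ± 0.14 (limma adjusted p = 0.0228). It was not called without vehicle replicate 1 or 3 or without MyrC replicate 1 or 2, with adjusted p up to 0.0945. NDUFA4 went from 72.8, 64.6 and 81.9 to 45.0, 32.3 and 33.0, at -0.98 ± 0.15 (limma adjusted p = 0.00083).

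Among the assembly factors of SW48, NDUFAF6 fell, NDUFAF3 rose, 6 were not called, and the median was -0.30. The 12.5% in each direction compare with 19.2% of all genes lower and 10.1% higher. NDUFAF3 (chr3:49020459-49023495) had signals of 12.3, 9.48 and 12.5 with vehicle and 19.8, 18.5 and 18.5 with MyrC. The treated mean was 166% of the vehicle mean and no values overlapped, with a rise of 0.69 ± 0.14 (limma adjusted p = 0.0035) that held under all alternatives tried. NDUFAF4, its partner, was at 8.85, 7.84 and 10.2 with vehicle and 9.54, 9.73 and 9.62 with MyrC, which overlapped. NDUFAF6 went from 7.38, 7.31 and 8.56 to 6.28, 5.00 and 4.71, at -0.47 ± 0.15 (limma adjusted p = 0.0325). It was not called without any 1 library of the line other than MyrC replicate 1, with adjusted p up to 0.121 over all alternatives. NDUFAF2 was at 45.9, 39.5 and 56.4 with vehicle and 39.5, 48.2 and 48.3 with MyrC. NDUFAF8 had vehicle signals spread from 13.0 to 32.2, which held all its treated values.

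**Figure D2:**
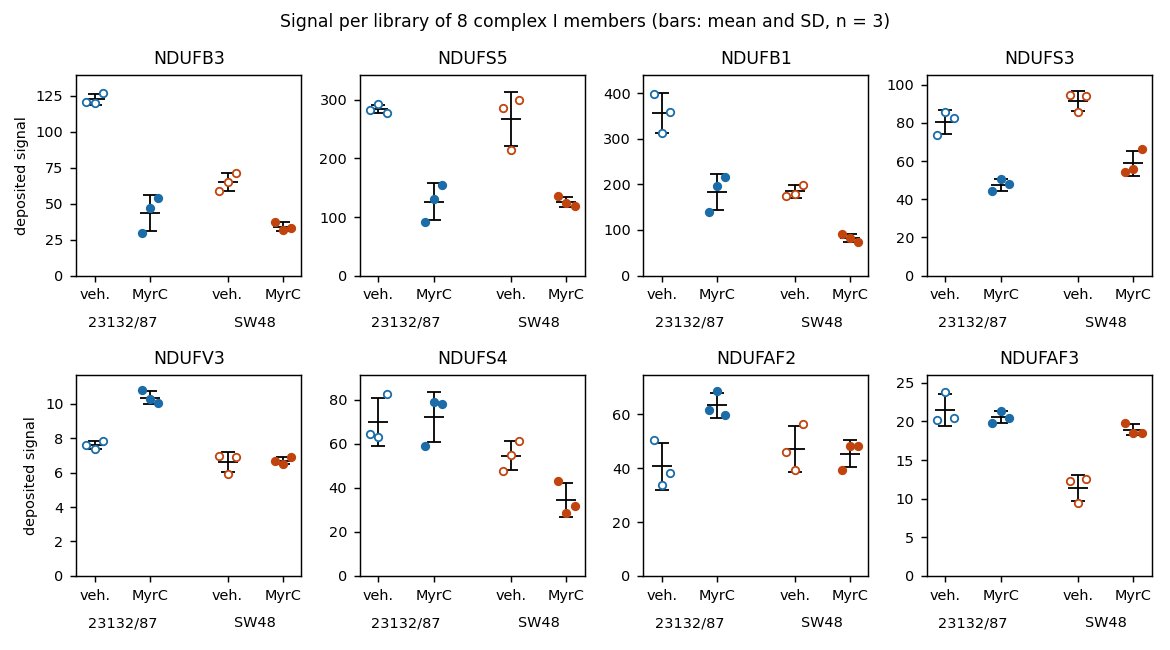
Deposited signal of 8 members in each library, vehicle (open) and MyrC (filled), with mean and SD of 3 libraries per group and axes that start at 0. NDUFB3, NDUFS5, NDUFB1 and NDUFS3 are lower with MyrC in both lines without overlap, NDUFV3 and NDUFAF2 are higher in 23132/87, NDUFAF3 is higher in SW48, and NDUFS4 is lower in SW48.

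The lines shared most of the subunit calls. Of 38 subunits, 29 fell in both lines (76.3%), whereas 1232 of the 10264 genes listed for both did so (12.0%). These 29 were among the 30 that fell in 23132/87 and the 33 that fell in SW48. NDUFA9 was called lower in 23132/87 alone, and NDUFS4, NDUFB9, NDUFB11 and NDUFC1 in SW48 alone, but for none of the 5 did the test of the difference itself, given next, make a call. The SW48 call of NDUFB9 was lost without vehicle replicate 1 or 3 or MyrC replicate 2, with adjusted p up to 0.0952. NDUFS1, NDUFA7 and NDUFB5 were called in neither line. No assembly factor was lower in both lines, and no member was called in opposite directions. The estimates had the same sign in 37 of 38 subunits and in 4 of 8 assembly factors, and in 70.8% of all genes. Across the 46 members the changes in the lines had a Pearson r of 0.64 and a Spearman rho of 0.65. Across all 10264 genes these were 0.63 and 0.61. Genes of a library are not independent of each other.

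**Figure D3:**
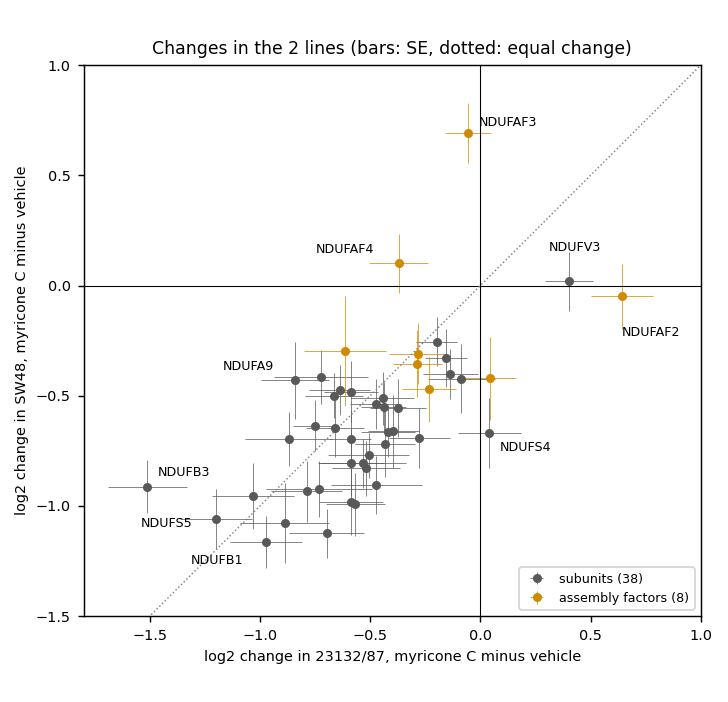
Log2 change in 23132/87 (horizontal) against SW48 (vertical) for 38 subunits (grey) and 8 assembly factors (orange), with moderated SE as bars and a dotted line of equal change. Subunits cluster in the lower left, NDUFAF3 lies near 0 in 23132/87 and at 0.69 in SW48, and NDUFAF2 lies at 0.64 in 23132/87 and near 0 in SW48.

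The difference between lines was tested as the line-by-treatment term over 10264 genes, with positive values where SW48 had the higher change. It was called for 2 of 46 members, both assembly factors, against 12.7% of all genes, 5.33% as higher and 7.39% as lower. NDUFAF3 differed by 0.75 ± 0.17 (limma adjusted p = 0.00967), higher in SW48, and this held under all alternatives tried. NDUFAF2 differed by -0.69 ± 0.22 (limma adjusted p = 0.0486), higher in 23132/87. The NDUFAF2 call did not hold on leaving out any 1 library except 23132/87 vehicle replicate 1 and SW48 vehicle replicate 2, with adjusted p between 0.0174 and 0.125 over all alternatives.

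No subunit was called in the difference by limma, where 1 had an unadjusted p under 0.05 as higher and 2 as lower. The largest estimates were NDUFS4, at -0.71 ± 0.23 with adjusted p = 0.0555, and NDUFB3, at 0.60 ± 0.23 with adjusted p = 0.0991. The NDUFS4 difference was called in 6 of 21 alternatives. These were quantile normalization, rescaling without mitochondrial pseudogenes and small RNAs, and leaving out vehicle replicate 3 or MyrC replicate 1 of 23132/87 or vehicle replicate 1 or MyrC replicate 1 of SW48. Its limma adjusted p was 0.029 without MyrC replicate 1 of 23132/87 and 0.0143 without MyrC replicate 1 of SW48. Without the former library 5 members were called lower in the difference, namely NDUFS4, NDUFA1, NDUFA13, NDUFB8 and NDUFC1, and NDUFAF2 was no longer called. Without MyrC replicate 3 of 23132/87, NDUFB3 was called as higher, with adjusted p = 0.0363. The 7 core subunits differed between lines by -0.11 to 0.17. The range was -0.71 to 0.41 in the 9 accessory subunits of the peripheral arm and -0.43 to 0.60 in the 20 of the membrane arm. These classes hold more genes than the core, and a range can widen with the number of genes.

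Seen library by library, subunits and assembly factors parted in every treated library. In 23132/87 the subunits' median distance from the vehicle mean was -0.89, -0.41 and -0.34 in MyrC replicates 1, 2 and 3, and that of the assembly factors -0.23, -0.23 and -0.17. The medians of all genes in these libraries lay between 0.00 and 0.02. MyrC replicate 1 was thus far lower than its fellows in subunits but not in assembly factors. Without it, 24 subunits were called lower and their median change was -0.41, and the assembly factors' median was -0.21. In SW48 the subunits' medians were -0.60, -0.81 and -0.72, those of the assembly factors -0.21, -0.26 and -0.16, and those of all genes -0.08, -0.12 and -0.05. MyrC replicate 1, the library with the high small RNA share, was the one nearest to vehicle, and without it 34 subunits were called lower at a median of -0.78.

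**Figure D4:**
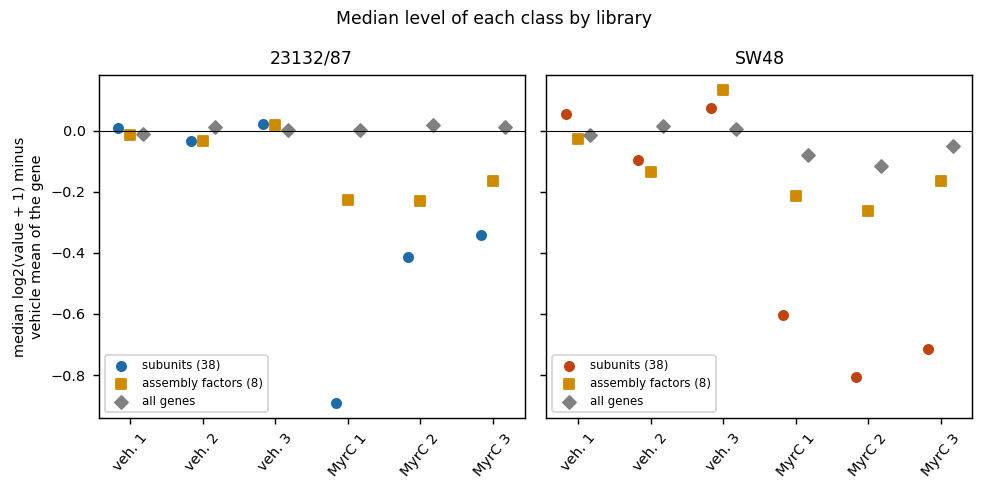
Median distance from the gene's vehicle mean on log2(value + 1), for 38 subunits (circles), 8 assembly factors (squares) and all genes (diamonds), in each library of 23132/87 (left) and SW48 (right). Vehicle libraries lie near 0, and in each MyrC library the subunits lie below the assembly factors, lowest at -0.89 in MyrC replicate 1 of 23132/87.

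Transcript length and signal also differ between the classes. The longest coding transcript had a median length of 1256.5 nt in subunits, 2094 nt in assembly factors and 3393 nt in all listed genes with a length. Short transcripts were lower with MyrC across all genes too. Among genes of up to 1000 nt, the median change was -0.20 in 23132/87 and -0.38 in SW48, and that of the 17 subunits in this band was -0.64 and -0.77. From 1000 to 2500 nt, all genes had medians of -0.08 and -0.19, and the 12 subunits -0.58 and -0.76. Above 2500 nt, all genes had 0.04 and -0.04, and the 9 subunits -0.39 and -0.54. The subunits were thus below all genes of like length in each band, and the part of length in the changes was not tested. Pseudogenes of the same symbol exist for 19 of the 46 members, with 12 each for NDUFA5 and NDUFB4, and 9 members are overlapped on the same strand by another coding gene, as NDUFC2 is by a readthrough gene. Signals of these genes may include reads of the copy or neighbour.

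Genes that complex I depends on gave mixed counts. Of 14 assembly factors without an NDUF name, 5 fell and 1 rose in 23132/87 (median -0.12), and 5 fell and none rose in SW48 (median -0.26). The 35.7% that fell in each line compare with 23.2% and 19.2% of all genes. TMEM126A, named after its values were seen, was called in opposite directions. It rose in 23132/87 by 0.35 ± 0.10 and changed by -0.49 ± 0.14 in SW48 (limma adjusted p = 0.018 and 0.02). The difference of -0.83 was called (limma adjusted p = 0.00492). FOXRED1, a flavoprotein needed for complex I assembly, went from 21.9 ± 1.13 to 10.3 ± 0.833 (SD, n = 3) in 23132/87, at -1.02 ± 0.11 (limma adjusted p = 7.11e-05). In SW48 it changed by -0.45 ± 0.13, and the difference of 0.57 was called (limma adjusted p = 0.0327). The SW48 fall was not called without vehicle replicate 1 or 2 or MyrC replicate 2, with adjusted p up to 0.114, and the difference kept its call only without MyrC replicate 1 of 23132/87 or vehicle replicate 1 or MyrC replicate 2 of SW48. AIFM1, which helps to import assembly proteins into the intermembrane space, fell in both lines, by 0.65 ± 0.09 and 0.53 ± 0.12 on the log2 scale (limma adjusted p = 0.000297 and 0.00889). DMAC2, a membrane-arm assembly factor, changed by -0.54 ± 0.16 in SW48 (limma adjusted p = 0.0258), a call lost without vehicle replicate 1 or 3 or MyrC replicate 2 or 3, with adjusted p up to 0.103. It was also called lower in 23132/87, at -0.46 ± 0.15 (limma adjusted p = 0.0272). That call was lost without vehicle replicate 1 or 2 or MyrC replicate 1 or 2.

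Of 14 genes of iron-sulfur cluster assembly, which supplies the peripheral arm, 3 rose and 4 fell in 23132/87 (median -0.20), and 1 rose and 5 fell in SW48 (median -0.34). In 23132/87 these shares, 21.4% higher and 28.6% lower, lay near the 23.3% and 23.2% of all genes, and in SW48 they were 7.14% and 35.7%, against 10.1% and 19.2%. NFS1, the desulfurase that supplies sulfur, fell in both lines, at -0.68 ± 0.12 and -0.77 ± 0.12 (limma adjusted p = 0.00157 and 0.00121). ISCU, the scaffold on which clusters are built, rose in 23132/87 by 0.62 ± 0.08 (limma adjusted p = 0.000309), and HSPA9, the mitochondrial chaperone, rose in SW48 by 1.03 ± 0.16 (limma adjusted p = 0.00108). ISCU was not called in SW48. HSPA9 also rose in 23132/87, by 0.30 ± 0.09 (limma adjusted p = 0.0197), and its difference of 0.73 was called (limma adjusted p = 0.0266). Its 23132/87 call was lost without vehicle replicate 1 or 2 or MyrC replicate 2 or 3, with adjusted p up to 0.069. The call of its difference was lost in several fits that left out a library, with adjusted p up to 0.0689. Of 12 genes of coenzyme Q synthesis, 5 fell and 1 rose in 23132/87 (median -0.33), and 3 fell in SW48 (median -0.26). The 41.7% and 25% that fell compare with 23.2% and 19.2% of all genes. In 23132/87, HPDL, an enzyme of head group synthesis, changed by -1.61 ± 0.15 and PDSS1, which builds the isoprenoid tail, by -1.27 ± 0.12 (limma adjusted p = 3.24e-05 and 4.22e-05). HPDL and PDSS1 were not called in SW48, and their differences of 1.37 and 0.99 were called (limma adjusted p = 0.00491 and 0.0117). In SW48, COQ2 and COQ3, a transferase that attaches the tail and a methyltransferase, changed by -0.76 ± 0.14 and -0.70 ± 0.15 (limma adjusted p = 0.00247 and 0.0057). COQ2 and COQ3 also fell in 23132/87, at -0.40 ± 0.12 and -0.81 ± 0.17 (limma adjusted p = 0.0186 and 0.0033). The 23132/87 call of COQ2 was lost without vehicle replicate 1 or 2, with adjusted p up to 0.0636. None of the 4 genes of flavin supply was called by limma in either line, and 0 had an unadjusted p under 0.05.

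Of the factors of mitochondrial biogenesis, 13 were listed for each line and 12 for both. PPARGC1A was listed for 23132/87 alone and PPARGC1B for SW48 alone. In 23132/87, 3 fell and 1 rose, with a median of -0.08 that was 0.0062 after rescaling without mitochondrial pseudogenes and small RNAs. In SW48, 1 fell and 1 rose, with a median of 0.13. The shares in 23132/87, 23.1% lower and 7.69% higher, compare with 23.2% and 23.3% of all genes. For SW48, 7.69% in each direction compares with 19.2% lower and 10.1% higher. TFAM, which packages and transcribes mitochondrial DNA, fell in both lines, at -0.66 ± 0.12 and -0.48 ± 0.11 (limma adjusted p = 0.0019 and 0.00665). GABPB1, a subunit of an ETS-family factor, rose in 23132/87 by 0.53 ± 0.14 (limma adjusted p = 0.0122), and PPARGC1B, a coactivator, rose in SW48 by 0.51 ± 0.18 from a signal of 1.92 (limma adjusted p = 0.0497). PPARGC1B was not called without any 1 SW48 library other than vehicle replicate 1, with adjusted p between 0.0571 and 0.16. NRF1, YY1 and GABPA, the DNA-binding partner of GABPB1, were not called in either line. NRF1 was at -0.13 and -0.17, GABPA at -0.14 and -0.25, and YY1 at -0.08 and 0.07 in 23132/87 and SW48.

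Genes of the other respiratory complexes also fell in number. Of 57 genes of complexes II to V, 37 fell and 3 rose in 23132/87 (median -0.53), and 43 fell and 2 rose in SW48 (median -0.66). The shares that fell, 64.9% and 75.4%, compare with 23.2% and 19.2% of all genes. This list holds assembly factors too, such as COX19. The medians of all 46 complex I members, likewise with assembly factors, were -0.51 and -0.64, and those of the subunits alone -0.58 and -0.68. ATP5MC3, a ring subunit of ATP synthase, changed by -1.58 ± 0.10 in 23132/87, and UQCRC2, a core protein of complex III, by -1.49 ± 0.12 (limma adjusted p = 4.39e-06 and 1.38e-05). In SW48, ATP5MF, another ATP synthase subunit, changed by -1.33 ± 0.12 and COX6C, of cytochrome c oxidase, by -1.08 ± 0.11 (limma adjusted p = 8.83e-05 and 0.000119). COX7A2L, which links complexes III and IV into supercomplexes, rose in both lines, by 0.79 ± 0.09 and 0.41 ± 0.14 (limma adjusted p = 0.000136 and 0.0435). COX19, a copper-related assembly factor, also rose in both, and COX11 rose in 23132/87. These last 3 genes were picked after their values were seen. Of 78 mitochondrial ribosomal proteins, 38 fell and 2 rose in 23132/87 (median -0.32). In SW48, 23 fell and 3 rose (median -0.25), and without vehicle replicate 3 the number that fell was 14. The 48.7% and 29.5% that fell compare with 23.2% and 19.2% of all genes. MRPS6 and MRPL12 led in 23132/87, at -0.98 ± 0.10 and -0.93 ± 0.13 (limma adjusted p = 5.76e-05 and 0.000295). In SW48 MRPL27 led, at -1.05 ± 0.16 (limma adjusted p = 0.000987), followed by MRPL11, which went from 46.4 ± 5.88 to 22.7 ± 2.27 (SD, n = 3; limma adjusted p = 0.000432). Nothing was tested on whether any of these lists differs from the NDUF genes.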

How the data were processed

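Stranded poly(A) RNA libraries were made with a TruSeq kit from RNA with an integrity number above 8.0, per the labels' protocols. The submitters' processing notes list FastQC, STAR and GRCh38. How reads were counted, with which strand setting and in which unit is not given in the sources used here. For 23132/87 the authors deposited an expression signal for 11070 genes, and for SW48 for 11554, of which 10264 overlap. The deposited signal shows no steps of whole reads, so depth is unknown, a count test did not apply and no counting interval is given. All listed values are about 1 or more, so silent genes are not listed. Columns were matched to samples through the sample descriptions, which number the SW48 MyrC libraries differently from the column names.

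The filter was a mean signal of 1, which every listed gene met. On log2 values with a pseudocount of 1, limma 3.58.1 (R 4.3.3) with a mean-variance trend was fitted per line on 6 libraries without covariates, and on all 12 for the difference between lines. All adjusted p-values are limma's with Benjamini-Hochberg adjustment over all genes of the fit, at a threshold of 0.05. Scripts were tested on simulated data. Lists were described by counts and medians without a test. Full statistics are given for the called members with the 4 largest rises and 4 largest falls in a line, those called in the difference, NDUFA4, NDUFAB1 and the 2 leading genes of each companion list. Other members were named after their values were seen. The members and lists were chosen with earlier results of these data known. Positions, lengths and overlaps come from GENCODE 29 on GRCh38, and promoters from RefSeq on GRCh38.p14. Replicates are labelled biological, with no word on separate cultures, so p-values measure the spread between these samples. Alternatives were other scalings, pseudocounts and filters, no trend, a replicate block, 1 fit of all libraries and leaving out each library. Of the members, 1 core subunit enters the counts and medians but is not reported here by itself. Genes not listed and read-level data were not analysed here.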

Additional observations from a re-analysis of the deposited data

Results flagged for a closer look

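The response of 2 assembly factors differed between the lines by the test of the difference itself, the line-by-treatment term of limma over all 10264 shared genes. For NDUFAF3 the SW48 change minus the 23132/87 change was 0.75 (adjusted p = 0.00967), with all 3 MyrC libraries above all vehicle libraries in SW48 and overlapping groups in 23132/87. For NDUFAF2 it was -0.69 (adjusted p = 0.0486), with all 3 MyrC libraries above vehicle in 23132/87 and overlapping groups in SW48. The NDUFAF3 call held under all 21 alternatives, whereas that of NDUFAF2 was lost in 13 of 21, namely with median-centring, no trend, the replicate block and 10 of the 12 fits that left out a library.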

How the results depend on the processing

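No member changed direction past the threshold under any alternative, and of the calls made, 21 of 34 in 23132/87, 29 of 35 in SW48 and 1 of 2 in the difference held under all of them. The subunits called lower numbered 22 to 30 in 23132/87 and 28 to 35 in SW48. The cause of the following changes was not tested. In 23132/87 the assembly factors called lower went from 2 to 1 after rescaling without mitochondrial pseudogenes and small RNAs, with a minimum of 10 in 3 libraries, with the replicate block and in 1 fit of all 12 libraries, and ranged from 0 to 2 on leaving out a library. Their median was -0.18 after rescaling, -0.18 with a pseudocount of 5 and -0.17 with the minimum of 10, which kept fewer factors. Subunits called higher ranged from 0 to 1 on leaving out a library. In SW48 the assembly factors called lower went from 1 to 0 with quantile normalization, rescaling, median-centring (added after the data were seen), the minimum of 10 and the replicate block, to 2 in 1 fit of all libraries, and ranged from 0 to 1 on leaving out a library. All genes called in SW48 numbered 3383, and 2199 to 3656 on leaving out a library, lowest without MyrC replicate 2. In the difference, members called lower went from 1 to 2 with quantile normalization and rescaling and to 0 with median-centring, no trend and the replicate block, and ranged from 0 to 5 on leaving out a library, those called higher from 1 to 2. All genes called in the difference went from 1306 to 812 with the minimum of 10 and to 770 with the replicate block, and ranged from 830, without SW48 vehicle replicate 2, to 1412 on leaving out a library. The median of biogenesis factors in 23132/87 was 0.0062 after rescaling, against -0.08.

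The replicate numbers of the labels gave no sign of pairing, as the deviations of same-numbered libraries correlated between -0.27 and 0.11. With 3 libraries a group such correlations cannot decide whether samples were handled in pairs. The SW48 columns carry other numbers, by which 2 pairs correlated at 0.15 and 0.27, the highest of that line, and no block was fitted on these. With the replicate block, 29 subunits were called lower in 23132/87 and 35 in SW48. Genes low in either condition are not listed, depth is unknown, and with 3 libraries a group small changes can be missed.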
